A study of Homo sapiens with 8 samples.

Results

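The 43 genes described here act in the cell division cycle: 23 whose products replicate DNA in S phase and 20 whose products act in G2 and mitosis (G2/M). They were chosen by gene name and not by a rule on measured values, though earlier results of these data were known. All 43 were found among the 58735 genes of the deposited count table. No gene of chromosome 8 is among them. RNA-seq was measured in EPC2-hTERT, a human esophageal epithelial cell line that was immortalised with telomerase, grown as a three-dimensional culture at the air-liquid interface (labelled 3D-ALI). The miR-155OE group held 4 libraries of a stable line that overexpresses miR-155-5p from a lentivirus, and the CTRL group held 4 libraries of control cells. Both groups shared the line, its telomerase and the culture, in which cells grew for 2 days on inserts with 0.4 µm pores and for 5 days in medium with 1.8 mM calcium before they were raised to the air. The labels do not say which construct the control cells carry, whether the overexpressing line is 1 clone, or whether the 4 libraries of a group are separate cultures, so p-values measure only the spread between these libraries, which may be technical. Same-numbered libraries of the groups deviated together, though weakly for number 3, whose libraries correlated best with library 4 of the other group. All 4 numbers were also compared as pairs.

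In a dividing cell, cyclin E and the E2F factors open S phase, the MCM helicase that was loaded on the DNA in G1 is activated, and polymerases copy the genome with nucleotides supplied by ribonucleotide reductase and thymidylate synthase. Cyclins A and B with CDK1 then drive entry into mitosis, spindle and kinetochore proteins align the chromosomes, and the anaphase promoting complex with CDC20 ends it. S phase and G2/M use different promoters: many S phase genes are under E2F, and many G2/M genes are under the DREAM, B-MYB and FOXM1 complexes, which act through an element called CHR. In stratified epithelium, division is largely a property of the basal layer, and cells leave the cycle as they move upward and differentiate.

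Libraries held 33443635 to 40589679 counted reads in miR-155OE and 34131130 to 52746852 in CTRL, and 15135 genes had enough reads to be tested. MIR155HG, the host gene of the microRNA, had 0 reads in all 8 libraries, so these counts do not check the overexpression. All 8 basal keratinocyte markers were detected, with a summed level of 17950 to 24230 CPM (reads of a gene per mega-read of its library, with library sizes scaled by TMM) in miR-155OE and 19770 to 25150 CPM in CTRL. The 8 suprabasal markers summed to 8340 to 24020 CPM in miR-155OE and 5376 to 11080 CPM in CTRL. Of the fibroblast markers, COL1A2, COL3A1, DCN and LUM had 0 reads in every library and COL1A1 had 3583 to 7357. The leukocyte markers summed to 0.728 to 1.51 CPM in miR-155OE and 0.444 to 0.726 CPM in CTRL: PTPRC and LYZ had at most 1 read in any library, and ITGAM had 19 to 41 reads per library in miR-155OE and 13 to 25 in CTRL, with CPM that did not overlap (edgeR's adjusted p = 0.228). The endothelial markers summed to 1.37 to 2.83 CPM in miR-155OE and 1.87 to 2.99 CPM in CTRL: PECAM1 and CDH5 had at most 1 read, VWF had 45 to 84 reads in miR-155OE and 72 to 85 in CTRL, and KDR had 3 to 17 in miR-155OE and 9 to 31 in CTRL. CD68, another leukocyte marker, had 6 to 13 reads in miR-155OE and 2 to 12 in CTRL. In bulk RNA, fewer cells in a phase and less RNA per cell cannot be told apart.

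The microRNA and 5 promoters are shown first, because its seed sets the letters searched for in the 3′ UTRs and the promoters show the elements that separate the phases. The mature miR-155-5p is given by RefSeq at chr21:25573983-25574006 (GRCh38.p14, plus strand), with its seed, bases 2 to 8, in capitals.
hsa-miR-155-5p: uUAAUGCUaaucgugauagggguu
The promoters are the 250 bases before the start that RefSeq gives each gene on GRCh38.p14, 5′ to 3′ on the strand of the gene. For CDC20, ECT2, TYMS and PCNA they overlap the gene position listed with the deposited counts, which starts earlier on that strand. Capitals mark matches on either strand to a motif of any of 3 kinds. CHR was searched as TTTGAA and, in a form that reads alike on both strands, as TTTAAA. The CCAAT box was searched by those letters. E2F was searched as TTTCCCGC, as TTTCGCGC, as TTTGCCGC and as TTTGGCGC. In MKI67 a match to CHR and a match to the CCAAT box share 1 base. CDC20 (chr1:43358731-43358980, plus strand), ECT2 (chr3:172750476-172750725, plus strand) and TYMS (chr18:657403-657652, plus strand) are the members that passed a test, PCNA (chr20:5126623-5126872, minus strand) was the member of highest level and MKI67 (chr10:128126424-128126673, minus strand) that of lowest level.
CDC20: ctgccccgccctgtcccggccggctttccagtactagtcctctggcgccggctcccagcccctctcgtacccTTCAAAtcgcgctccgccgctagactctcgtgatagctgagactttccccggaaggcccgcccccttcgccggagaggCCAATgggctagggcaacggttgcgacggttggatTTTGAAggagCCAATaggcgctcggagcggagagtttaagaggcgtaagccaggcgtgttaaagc
ECT2: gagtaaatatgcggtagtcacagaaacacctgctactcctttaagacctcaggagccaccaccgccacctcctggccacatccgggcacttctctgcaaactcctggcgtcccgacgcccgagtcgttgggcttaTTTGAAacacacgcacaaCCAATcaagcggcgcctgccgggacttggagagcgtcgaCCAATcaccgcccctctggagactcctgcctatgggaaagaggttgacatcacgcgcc
TYMS: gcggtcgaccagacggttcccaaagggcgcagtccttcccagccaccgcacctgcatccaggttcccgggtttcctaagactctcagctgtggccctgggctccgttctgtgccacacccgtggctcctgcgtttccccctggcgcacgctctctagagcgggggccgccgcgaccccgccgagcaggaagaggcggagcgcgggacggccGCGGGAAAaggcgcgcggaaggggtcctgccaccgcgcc
PCNA: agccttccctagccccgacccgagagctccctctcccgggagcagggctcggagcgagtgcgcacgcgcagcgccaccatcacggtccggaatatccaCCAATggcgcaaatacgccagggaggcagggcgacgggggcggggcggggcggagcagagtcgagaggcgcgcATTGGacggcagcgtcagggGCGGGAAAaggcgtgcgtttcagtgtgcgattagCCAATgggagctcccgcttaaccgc
MKI67: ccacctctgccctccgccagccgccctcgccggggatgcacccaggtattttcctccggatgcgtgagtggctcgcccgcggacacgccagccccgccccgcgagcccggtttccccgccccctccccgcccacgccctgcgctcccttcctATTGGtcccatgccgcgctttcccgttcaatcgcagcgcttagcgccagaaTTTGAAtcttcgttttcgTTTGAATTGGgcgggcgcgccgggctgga

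CHR matches lay mostly in G2/M promoters and E2F matches mostly in S phase promoters. A RefSeq promoter was matched for 37 of the 43 members, and the window searched also held the 50 bases after the start. CHR was found in 13 of 16 G2/M promoters (81.2%) and in 3 of 21 S phase promoters (14.3%), against 24.3% of all 27305 promoters. The E2F letters were found in 1 of 16 G2/M promoters (6.25%) and in 13 of 21 S phase promoters (61.9%), against 3.33% of all promoters. CCAAT was in 87.5% of the G2/M and 66.7% of the S phase promoters, and in 35.7% of all. CHR and CCAAT together were in 68.8% of the G2/M and 9.52% of the S phase promoters, and in 9.49% of all. In the whole window CDC20 held 2 CHR and 2 CCAAT matches, ECT2 held 2 CHR and 3 CCAAT matches, and TYMS held 1 E2F match and neither of the others. A match is a description of the letters and not a bound site.

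**Figure D1:**
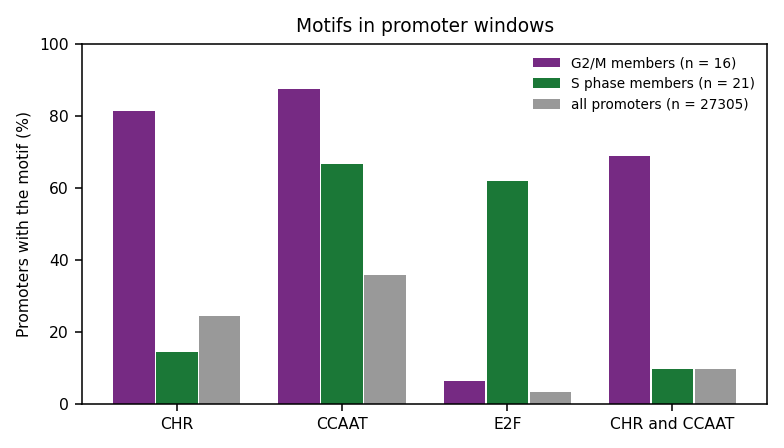
Share of promoter windows (in percent, on the vertical axis) that hold each motif on either strand, for the 16 G2/M members and the 21 S phase members with a RefSeq promoter and for all 27305 promoters. CHR was in 81.2% of the G2/M and 14.3% of the S phase promoters, and E2F was in 6.25% and 61.9% of them.

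In both groups the S phase members stood higher than the G2/M members. Levels per length were taken as RPKM (CPM divided by the deposited gene length in kilobases). Over all libraries the S phase members had a median of 0.945 and the G2/M members 0.0566. These medians include 3 S phase and 10 G2/M members with too few reads to be tested. The genes tested, a set without such genes, had a median of 2.94. At least 1 RPKM was reached by 11 of 23 S phase members and by 2 of 20 G2/M members, CDC20 and ECT2. Under 0.1 RPKM stood 12 of 20 G2/M members and 5 of 23 S phase members, and so did 7709 of 19951 protein-coding genes. The summed CPM of the S phase members averaged 277 ± 7.31 in miR-155OE and 267 ± 5.37 in CTRL, and that of the G2/M members 25.04 ± 3.51 in miR-155OE and 24.6 ± 3.60 in CTRL (SD, n = 4 each). G2/M reads were 9.07 ± 1.48% of S phase reads in miR-155OE and 9.21 ± 1.25% in CTRL, a difference smaller than the SD.

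**Figure D2:**
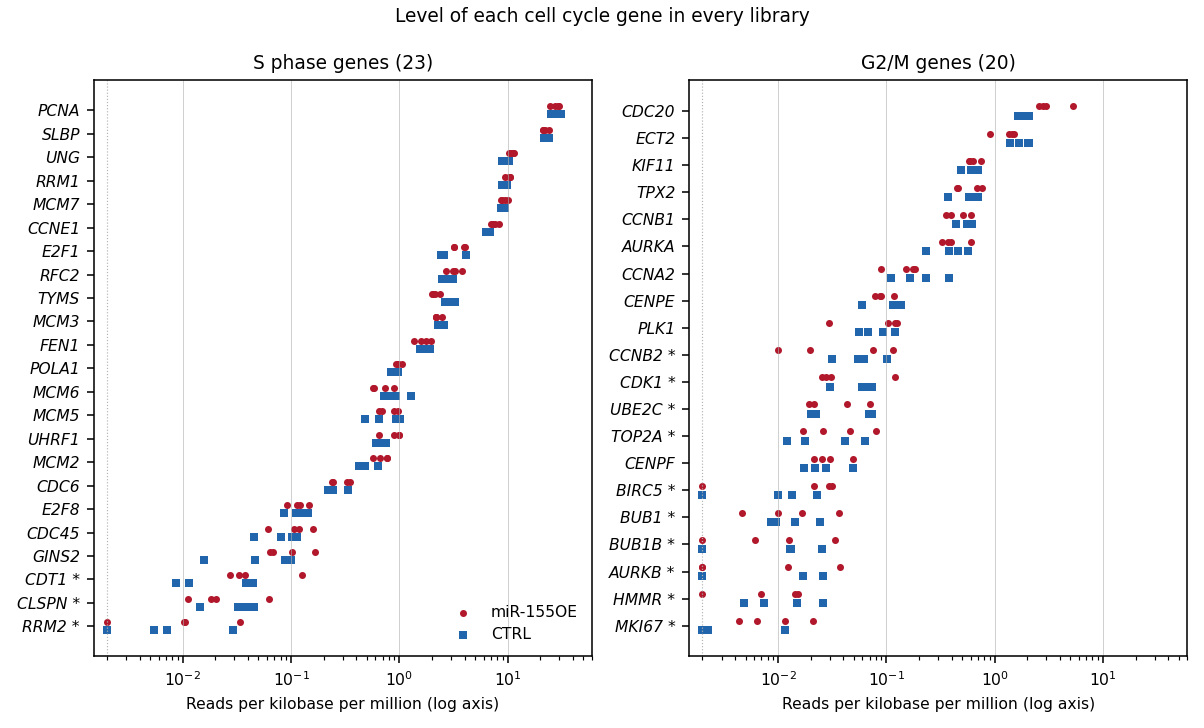
RPKM of each member in each library on a log axis, S phase members on the left and G2/M members on the right, in order of mean level, with circles for the 4 miR-155OE libraries and squares for the 4 CTRL libraries. Points on the dotted line are libraries with 0 reads and an asterisk marks the 13 members with too few reads to be tested. The highest S phase members stand above 20 RPKM and all but 2 G2/M members average below 1 RPKM.

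PCNA and SLBP stood at the top of all members per length. PCNA, the sliding clamp of the polymerases, averaged 27.9 ± 2.23 RPKM in miR-155OE and 27.5 ± 2.76 RPKM in CTRL. SLBP, which binds the stem-loop of histone mRNA, averaged 22.2 ± 1.503 RPKM in miR-155OE and 22.9 ± 1.06 RPKM in CTRL (SD, n = 4 each). The difference between these neighbours in rank exceeded their SD. After them came UNG, the uracil glycosylase, RRM1, the large subunit of ribonucleotide reductase, and MCM7, at 10.9, 10.2 and 9.28 RPKM in miR-155OE and at 9.72, 9.58 and 9.23 RPKM in CTRL. In CTRL these 3 lay within 0.589 RPKM, the largest of their SDs, and in miR-155OE they spread over more than theirs, 0.636 RPKM. CCNE1, the cyclin that opens S phase, averaged 7.62 ± 0.548 RPKM in miR-155OE and 6.64 ± 0.233 RPKM in CTRL.

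MKI67, TOP2A and RRM2 were near the limit of detection, though PCNA had 1217 to 2213 reads per library and MCM2 had 81 to 134. MKI67, which codes for the Ki-67 antigen, was the lowest member per length, with 9, 2, 6 and 3 reads in the miR-155OE libraries and 5, 1, 0 and 0 reads in the CTRL libraries. TOP2A, the topoisomerase that untangles chromosomes, had 17, 6, 12 and 4 reads in miR-155OE and 9, 14, 6 and 3 reads in CTRL. RRM2, the small subunit of ribonucleotide reductase whose supply is tied to S phase, had 0 to 6 reads in any library. These 3 and another 10 members (CDT1, CLSPN, CCNB2, CDK1, UBE2C, AURKB, BIRC5, BUB1, BUB1B and HMMR) had at most 17 reads in any library and too few to be tested. Together these 13 held 38 to 69 reads per miR-155OE library and 45 to 64 reads per CTRL library. Fitted with no filter, they had adjusted p-values of 0.492 to 0.986 (edgeR, quasi-likelihood test, Benjamini-Hochberg adjustment). The lowest of these was that of MKI67, with an unfiltered log2 fold change of 1.71, and MKI67 was higher in miR-155OE in all 4 pairs. At this depth no difference in the 13 was detected, and one could be missed. A count of 3 reads, the most that a count of 0 allows, would be 0.0745 to 0.0902 CPM in the miR-155OE libraries and 0.0573 to 0.0888 CPM in the CTRL libraries, and covers counting error only.

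Comparing miR-155OE with CTRL asked whether the overexpressing epithelium differed in its replication and mitosis genes. On group alone, 0 of the 30 members tested passed edgeR's quasi-likelihood test at a false discovery rate of 0.05, against 3.22% of all genes tested (2.17% that were higher and 1.05% that were lower). The lowest adjusted p-values were 0.0607 for CDC20 and 0.062 for TYMS. At an unadjusted p under 0.05 stood 7 members (23.3%), against 19.3% of all genes: MCM2, UNG, UHRF1, CCNE1 and CDC20 with higher and TYMS and ECT2 with lower means in miR-155OE. DESeq2's Wald test called 2 of the 30, CDC20 and TYMS, against 8.08% of all genes, and the authors' deposited table lists the same 2 of 43, against 4.73% of its genes. With the replicate number as a block, edgeR called 3 of the 30 (10%), against 12.6% of all genes. CDC20 rose, 1 of 30 against 7.43% of all genes, and TYMS and ECT2 fell, 2 of 30 against 5.17%.

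**Figure D3:**
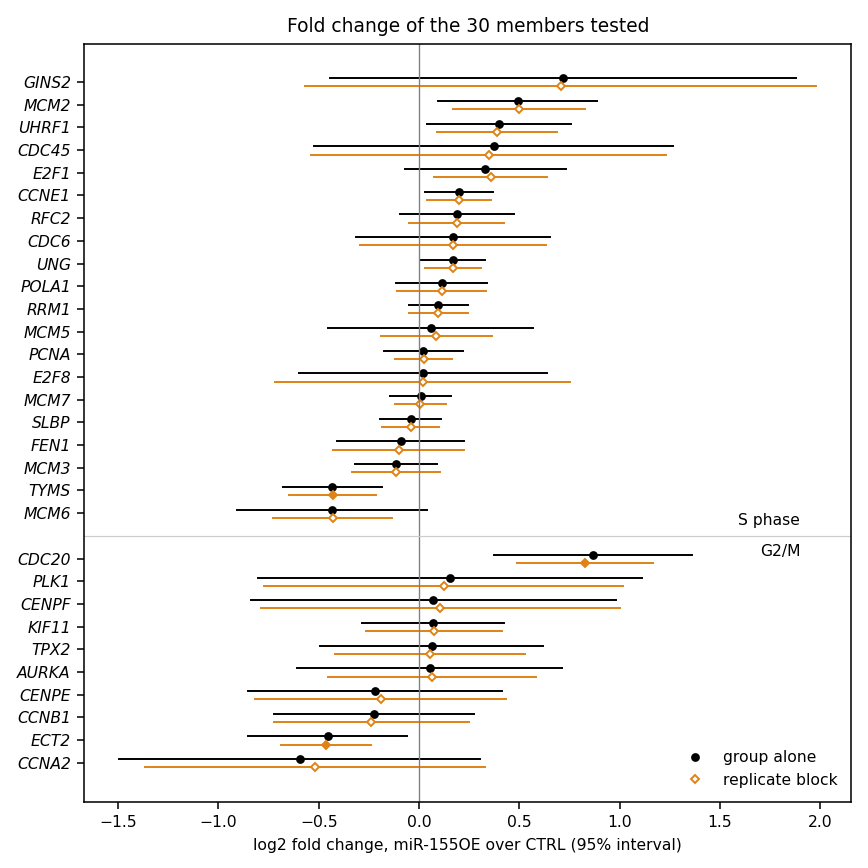
log2 fold change of miR-155OE over CTRL for the 30 members tested, with 95% confidence intervals from edgeR, S phase members above the line and G2/M members below it. Filled circles are the fit on group alone and diamonds the blocked fit, filled where the adjusted p passed 0.05. CDC20 stands at 0.87 and 0.83, TYMS at −0.43 in both fits and ECT2 at −0.46 in both.

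The intervals bound how large a difference these libraries allow. On group alone the 95% confidence interval of the log2 fold change lay within −1 and 1 for 25 of the 30 members, 18 of 20 in S phase and 7 of 10 in G2/M. It lay within −0.5 and 0.5 for 10 S phase members and 1 G2/M member. The median log2 fold change was 0.10 over the S phase members tested and 0.06 over the G2/M members tested, against −0.01 over all genes tested. Of the S phase members 15 had a positive and 5 a negative value, and of the G2/M members 6 had a positive and 4 a negative value. Groups did not overlap for 3 members that were higher in miR-155OE (UNG, CCNE1 and CDC20), against 6.16% of all genes, and for 1 that was lower (TYMS), against 5.25%. Of the 30 members tested, 6 were higher in miR-155OE in all 4 pairs (MCM2, POLA1, UNG, UHRF1, CCNE1 and CDC20), against 18.8% of all genes. In all 4 pairs 3 were lower (MCM6, TYMS and ECT2), against 16.9%.

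Among the licensing factors and MCM subunits, which load the replicative helicase, the subunits of the one hexamer did not share a direction. MCM2 (GRCh38, chromosome 3, 127598223 to 127622436, plus strand) had 3.76, 3.75, 3.25 and 2.82 CPM in miR-155OE, against 3.14, 2.35, 2.06 and 2.14 CPM in CTRL. It was higher in each of the 4 pairs, though the groups overlapped (log2 fold change 0.49, SE 0.18, edgeR's adjusted p = 0.165 on group alone and 0.0564 with the block). MCM6 had 3.04, 3.69, 2.36 and 2.41 CPM in miR-155OE, against 3.88, 5.24, 3.49 and 2.94 CPM in CTRL, and was lower in each pair. Its log2 fold change was −0.43 (SE 0.21), with edgeR's adjusted p = 0.302 on group alone and 0.0613 with the block. Neither subunit passed a test, and their directions were opposite in all 4 pairs. MCM7, the subunit of highest level, averaged 40.7 ± 2.79 CPM in miR-155OE and 40.5 ± 1.47 CPM in CTRL (SD, n = 4 each), with a log2 fold change of 0.01 and a 95% interval of −0.14 to 0.16. MCM7 shares 392 of its 4386 exon bases with AP4M1 on the other strand. MCM3 and MCM5 had log2 fold changes of −0.11 and 0.06, and CDC6, which loads the helicase, had 0.17. CDT1, its partner in loading, had 27 reads in all miR-155OE libraries together and 13 in all CTRL libraries together.

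The factors that activate the helicase also had few reads. CDC45 had 15, 12, 7 and 11 reads in miR-155OE and 11, 10, 12 and 5 reads in CTRL. GINS2, a subunit of the GINS complex, had 0.210, 0.336, 0.223 and 0.547 CPM in miR-155OE and 0.326, 0.290, 0.153 and 0.0516 CPM in CTRL. Its log2 fold change of 0.72 had a 95% interval of −0.44 to 1.88, which holds differences in either direction. At the replication fork the 4 members were measured more closely, and all 4 intervals lay within −0.5 and 0.5. PCNA had 36.6, 43.9, 40.7 and 43.1 CPM in miR-155OE and 36.9, 45.3, 42.3 and 37.3 CPM in CTRL, a log2 fold change of 0.02. RFC2, a subunit of the clamp loader, had 6.01, 7.17, 6.95 and 8.40 CPM in miR-155OE and 6.19, 6.48, 5.44 and 6.94 CPM in CTRL, a log2 fold change of 0.19. The groups overlapped for both. POLA1, the catalytic subunit of the priming polymerase, had a log2 fold change of 0.11 and FEN1, the flap nuclease of the lagging strand, −0.09. FEN1 shares 166 of its 2478 exon bases with TMEM258 on the other strand and 49 with FADS2 on the same strand, both genes of higher level.

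Nucleotide supply held the S phase member that passed a test. TYMS, thymidylate synthase (GRCh38, chromosome 18, 657604 to 673578, plus strand), makes the thymidine nucleotide for DNA and is the target of fluorouracil. It had 4.90, 5.04, 5.91 and 5.31 CPM in miR-155OE, against 6.84, 6.57, 8.00 and 7.12 CPM in CTRL. Every miR-155OE library stood below every CTRL library, and the pairs differed by −0.48, −0.38, −0.43 and −0.42 on the log2 scale. The log2 fold change was −0.43 (SE 0.11), with edgeR's adjusted p = 0.062 on group alone and 0.0203 with the replicate block. DESeq2's Wald test gave TYMS an adjusted p of 0.0161, and the authors' deposited table gives it −0.43 with an adjusted p of 0.0208. With the block, the call was lost without the libraries numbered 1 (adjusted p = 0.114 by edgeR) and without those numbered 4 (0.0781). TYMS shares 967 of its 2470 exon bases (39.1%) with ENOSF1 on the other strand, and the labels do not state whether the counting used strand. ENOSF1 averaged 7.91 ± 0.728 CPM in miR-155OE and 8.64 ± 0.746 CPM in CTRL (SD, n = 4 each; log2 fold change −0.13, edgeR's adjusted p = 0.563). RRM1 had 44.4, 44.1, 39.7 and 42.9 CPM in miR-155OE and 37.0, 41.2, 41.7 and 40.2 CPM in CTRL, groups that overlapped (log2 fold change 0.10, 95% interval −0.05 to 0.24).

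None of the tested regulators of S phase entry and repair and chromatin members passed the test, and 5 of these 6 had a positive log2 fold change. CCNE1 (GRCh38, chromosome 19, 29811898 to 29824308, plus strand) had 18.7, 18.1, 21.3 and 19.7 CPM in miR-155OE, against 17.6, 16.2, 16.9 and 17.1 CPM in CTRL. The groups did not overlap, but the difference was small, a log2 fold change of 0.20 (SE 0.08, edgeR's adjusted p = 0.187, and 0.104 with the block). UHRF1, which carries DNA methylation over to the new strand, had 5.11, 5.12, 4.64 and 3.34 CPM in miR-155OE, against 3.61, 3.88, 3.13 and 3.199 CPM in CTRL. The groups overlapped through miR-155OE library 4 (log2 fold change 0.40, SE 0.16, edgeR's adjusted p = 0.207, and 0.0878 with the block). UNG had 28.9, 27.3, 26.4 and 29.4 CPM in miR-155OE, against 24.8, 26.2, 22.9 and 25.9 CPM in CTRL, a log2 fold change of 0.17. E2F1, an activator of S phase genes, had 8.08, 8.06, 9.90 and 10.1 CPM in miR-155OE, against 6.07, 6.43, 6.01 and 10.3 CPM in CTRL. Its groups overlapped only through CTRL library 4, and its log2 fold change was 0.33 (SE 0.18). E2F8, a repressor of the same genes, had a log2 fold change of 0.02, and SLBP had −0.04 with a 95% interval of −0.19 to 0.11.

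Among the G2/M members the anaphase promoting complex partner CDC20 had the largest log2 fold change of all members tested. CDC20 (GRCh38, chromosome 1, 43358955 to 43363203, plus strand) activates the complex that ends metaphase and is held back by the spindle checkpoint. It had 5.65, 5.23, 10.8 and 6.13 CPM in miR-155OE, against 3.88, 3.36, 4.26 and 3.77 CPM in CTRL. Every miR-155OE library stood above every CTRL library, with library 3 at the top, and the pairs differed by 0.54, 0.63, 1.33 and 0.70 on the log2 scale. The log2 fold change was 0.87 (SE 0.22, 95% interval 0.37 to 1.36), with edgeR's adjusted p = 0.0607 on group alone and 0.0089 with the replicate block. DESeq2's Wald test gave CDC20 an adjusted p of 0.00545, and the authors' deposited table gives it 0.87 with an adjusted p of 0.00475. Without miR-155OE library 3, the log2 fold change was 0.57 (edgeR's adjusted p = 0.0902), and with the block and without both libraries numbered 3 it was 0.63 (0.0161). That library also had the highest suprabasal marker sum, 24020 CPM, of which KRT10 held 11460 CPM and KRT1 9626 CPM. The suprabasal markers did not share a direction there. KRT1, KRT10, IVL and DSG1 stood at their highest of all 8 libraries, and KRT4, KRT13, SPRR3 and CRNN at their lowest. The part of differentiation in the CDC20 value was not tested. UBE2C, the ubiquitin-conjugating enzyme of the same complex, had 1 to 3 reads per library in miR-155OE and 1 to 5 in CTRL.

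ECT2 moved the other way. ECT2 (GRCh38, chromosome 3, 172750682 to 172821474, plus strand) is the exchange factor that turns on RhoA to set the cleavage furrow of cytokinesis. It had 7.96, 8.34, 7.52 and 5.01 CPM in miR-155OE, against 9.17, 11.5, 11.2 and 7.64 CPM in CTRL. The groups overlapped, and the miR-155OE library was the lower one in each of the 4 pairs, by 0.20, 0.46, 0.57 and 0.60 on the log2 scale. The log2 fold change was −0.46 (SE 0.18), with edgeR's adjusted p = 0.192 on group alone. With the replicate block ECT2 fell (log2 fold change −0.46, SE 0.10, edgeR's adjusted p = 0.0177), and the call was lost without the libraries numbered 4 (0.0803). CDC20 and ECT2 were the only G2/M members at 1 RPKM or more, and their values went in opposite directions in all 4 pairs.

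**Figure D4:**
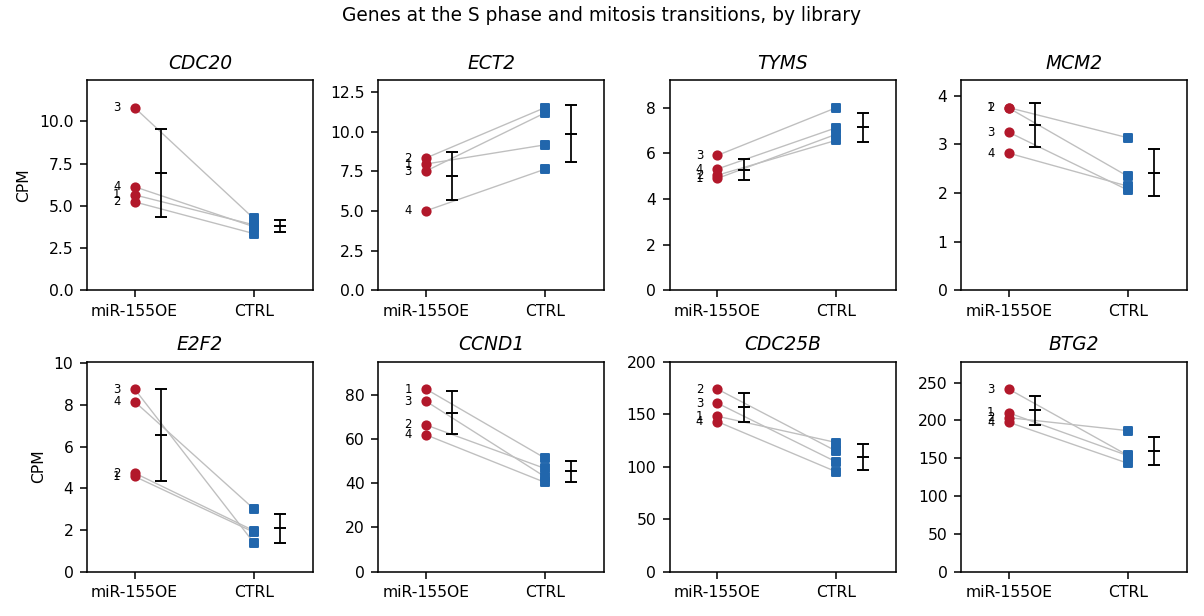
CPM per library of CDC20, ECT2, TYMS and MCM2 (top row) and of E2F2, CCND1, CDC25B and BTG2 (bottom row), miR-155OE on the left and CTRL on the right of each panel, with grey lines joining same-numbered libraries and bars for the mean and SD of each group (n = 4). All 4 lines of CDC20, MCM2, E2F2, CCND1, CDC25B and BTG2 run higher in miR-155OE, and all 4 lines of ECT2 and TYMS run lower.

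The cyclins, kinases and spindle proteins of mitosis were low and variable, and none passed a test. CCNB1, the cyclin partner of CDK1, had 1.29, 1.01, 1.54 and 0.903 CPM in miR-155OE, against 1.45, 1.56, 1.41 and 1.14 CPM in CTRL (log2 fold change −0.23, 95% interval −0.73 to 0.27). CCNA2, the cyclin of S phase and G2, had 0.511, 0.252, 0.422 and 0.493 CPM in miR-155OE, against 0.651, 0.463, 1.07 and 0.310 CPM in CTRL. Its log2 fold change of −0.59 had an interval of −1.49 to 0.31, and CCNA2 shares 254 of its 2798 exon bases with EXOSC9 on the other strand, a gene of higher level. CDK1 itself had 4, 17, 4 and 4 reads in miR-155OE and 4, 10, 14 and 9 reads in CTRL. AURKA, the kinase of the spindle poles, had 1.08, 1.76, 1.17 and 0.958 CPM in miR-155OE and 0.681, 1.65, 1.34 and 1.11 CPM in CTRL, a log2 fold change of 0.05. PLK1, the kinase of mitotic entry, had 0.601, 0.140, 0.496 and 0.575 CPM in miR-155OE and 0.266, 0.318, 0.573 and 0.439 CPM in CTRL. The groups of both kinases overlapped. The intervals of AURKA ran from −0.61 to 0.71 and those of PLK1 from −0.80 to 1.11. BUB1, a kinase of the spindle checkpoint, had 2, 1, 4 and 8 reads in miR-155OE and 5, 3, 3 and 2 reads in CTRL. KIF11, the motor that pushes the spindle poles apart, had 2.80, 2.86, 3.62 and 3.07 CPM in miR-155OE and 2.37, 3.45, 2.98 and 2.97 CPM in CTRL, a log2 fold change of 0.07 (95% interval −0.28 to 0.43). CENPE, the kinetochore motor, had a log2 fold change of −0.22, CENPF, a kinetochore protein, 0.07, and TPX2, the activator of AURKA, 0.06.

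Set against each other by library, the G2/M members varied more between libraries than between groups. For each library the median deviation of log2 CPM from the CTRL mean was taken over the members tested, 20 in S phase and 10 in G2/M. For S phase it was 0.15, 0.14, 0.00 and 0.06 in miR-155OE, against 0.03, 0.04, −0.03 and −0.01 in CTRL. For G2/M it was −0.07, −0.13, −0.02 and −0.21 in miR-155OE, against 0.03, 0.14, 0.29 and −0.26 in CTRL. CTRL libraries 3 and 4 were thus the highest and the lowest of all 8 for G2/M, and they bracketed every miR-155OE library. The group means differed by 0.08 for S phase and by −0.16 for G2/M, and the G2/M difference was −0.01 without CTRL library 3. The median log2 fold change of the same G2/M members was 0.06, with 6 positive and 4 negative, so the sign for G2/M depended on the summary used. No p is given for these medians.

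The medians of the pairs had 1 sign for S phase and both signs for G2/M. The median log2 difference over the S phase members tested was 0.04, 0.14, 0.02 and 0.10 for numbers 1 to 4, positive each time. The members themselves were split, with 10, 15, 11 and 14 higher and 10, 5, 9 and 6 lower in miR-155OE for these numbers. For numbers 1 and 3 the sign thus rested on medians near 0. Over the G2/M members tested it was 0.24, −0.14, −0.38 and 0.31, positive for numbers 1 and 4 and negative for numbers 2 and 3. Only CDC20, positive, and ECT2, negative, kept one sign over all 4 pairs among the 10 G2/M members tested.

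**Figure D5:**
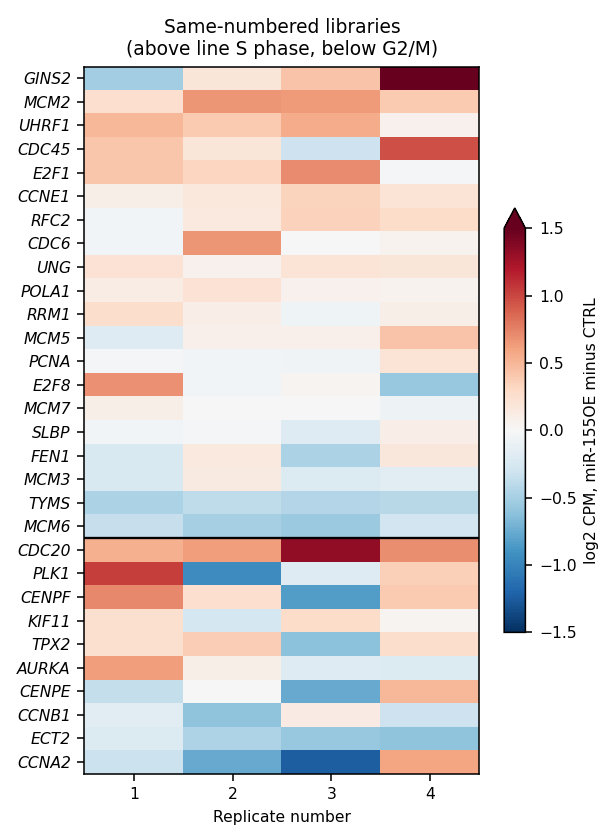
log2 CPM of the miR-155OE library minus that of the CTRL library with the same number, for each of the 30 members tested (rows, S phase above the line and G2/M below it) and each of the 4 numbers (columns), with red for higher in miR-155OE. Rows of 1 colour are the 6 members higher and the 3 members lower in all 4 pairs, and the scale ends at 1.5, which GINS2 passes for number 4.

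Lists of other cell cycle genes were read from the same fit. Of all genes tested, 2.17% rose and 1.05% fell on group alone, and 7.43% rose and 5.17% fell with the block. Of 47 further replication genes 38 were tested, and MSH6 fell with the block and did not pass on group alone. MSH6, a mismatch repair protein, averaged 29.9 ± 3.32 CPM in miR-155OE and 36.5 ± 2.27 CPM in CTRL (SD, n = 4 each; edgeR's adjusted p = 0.101, and 0.0372 with the block). MSH6 shares 1785 of its 10993 exon bases with FBXO11 on the other strand.

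Of 52 further mitosis genes, 26 were tested and 29 stood under 0.1 RPKM. Of the 26 tested, 1 rose in either fit, against 2.17% of all genes on group alone and 7.43% with the block. It was CDC25B, the phosphatase that starts mitosis by activating cyclin B with CDK1. CDC25B had 148, 174, 161 and 143 CPM in miR-155OE, against 123, 115, 105 and 95.1 CPM in CTRL, with no overlap (log2 fold change 0.52, SE 0.09, edgeR's adjusted p = 0.0209). That call was lost without miR-155OE library 1 or 3 or CTRL library 3 (0.0549 to 0.0745). FOXM1 and MYBL2, the activators of G2/M genes, had 6 to 8 and 6 to 11 reads per library in miR-155OE and 1 to 14 and 2 to 6 in CTRL, too few to be tested. None of the 5 tested members of their list of 7 passed on group alone or with the block.

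Upstream of S phase, 16 G1 cyclins, kinases and E2F genes were all tested. On group alone 2 of the 16 rose, against 2.17% of all genes. E2F2, an activating E2F, had 4.57, 4.73, 8.76 and 8.16 CPM in miR-155OE, against 1.89, 1.97, 1.39 and 3.02 CPM in CTRL, with no overlap. Its log2 fold change was 1.67 (SE 0.29, edgeR's adjusted p = 0.0155). CCND1, cyclin D1, had 82.7, 66.4, 77.2 and 62.0 CPM in miR-155OE, against 51.4, 46.7, 42.96 and 40.4 CPM in CTRL, also with no overlap (log2 fold change 0.67, SE 0.11, edgeR's adjusted p = 0.0118). Without CTRL library 3 both calls were lost (0.0564 for E2F2 and 0.0507 for CCND1), and without CTRL library 1 that of E2F2 (0.0534). CCND2, cyclin D2, fell with the block alone (log2 fold change −0.26, edgeR's adjusted p = 0.0334). Levels of E2F2 and CCND1 were higher in miR-155OE in all 4 pairs.

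Of 16 brakes on the cycle, all tested, 1 rose on group alone, against 2.17% of all genes. BTG2, an antiproliferative gene, had 210, 204, 241 and 198 CPM in miR-155OE, against 153, 186, 154 and 143 CPM in CTRL (log2 fold change 0.42, SE 0.10, edgeR's adjusted p = 0.0448). This call was lost in 6 of the 8 fits that left out 1 library, and adjusted p-values reached 0.123. With the block CDKN2B, the inhibitor p15 of CDK4 and CDK6, rose (0.31, edgeR's adjusted p = 0.0238) and WEE1, the kinase that holds back CDK1, fell (−0.38, adjusted p = 0.0405). WEE1 was lower in 3 of 4 pairs and higher by 0.01 in pair 2. CDKN1A, the inhibitor p21, was the brake of highest level, with 697 ± 81.3 RPKM in miR-155OE and 712 ± 32.6 RPKM in CTRL (SD, n = 4 each), and did not pass a test (log2 fold change −0.03, 95% interval −0.25 to 0.19). The suprabasal markers KRT1 and DSG1 rose in the same fit on group alone, and with the block 3 of the 8 suprabasal markers rose and 4 fell. Their part in the values of the cell cycle genes was not tested. MSH6, CCND2, CDKN2B and WEE1 were each called in 1 of the 4 blocked fits that left out both libraries of a number, that without number 2.

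Matches to the miR-155-5p seed were rare among the members. The letters that pair with bases 2 to 8 of the microRNA are AGCATTA, and a site was counted where these stood in the longest 3′ UTR annotated by GENCODE 29, or where the last 6 of them were followed by A. Of the 43 members 1 had a site (2.33%), CDC6, against 2165 of 11378 genes at 1 CPM or more (19.0%), while the median 3′ UTR was 799 bases in the members and 1673 bases in those genes. Among the other genes named, WEE1, E2F2, CCND1 and CDKN2B had sites, and CDC20, ECT2, TYMS, CDC25B and BTG2 had none. Sites of CDC6 (chr17:40303140-40303168, plus strand), WEE1 (chr11:9589172-9589201, plus strand), E2F2 (chr1:23508322-23508351, minus strand) and CCND1 (chr11:69651628-69651656, plus strand) are shown on GRCh38, with the pairing bases and the A after them in capitals, since they set genes that went in different directions side by side.
CDC6: ttggtttggtgGCATTAAatggcaatttg
WEE1: tgtaaacttgtAGCATTAAacaatcattgt
E2F2: gaaaagtttgtAGCATTAAgctggtttaaa
CCND1: tgtaagaatagGCATTAAcacaaaggagg
WEE1 fell with the block and E2F2 and CCND1 rose on group alone, and CDC6 had 1.32, 1.96, 1.84 and 1.37 CPM in miR-155OE, against 1.36, 1.22, 1.85 and 1.32 CPM in CTRL. A match in a 3′ UTR is a description and was not tested for repression.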

How the data were processed

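Total RNA was sequenced from 8 libraries, 4 miR-155OE and 4 CTRL. Per the submitters' processing notes, the authors used HISAT2 2.0.5, featureCounts 1.5.0-p3 and DESeq2 on GRCh38; options, strand setting and annotation release are not given in the sources used here. Per the file headers, the deposited raw counts are whole reads for each Ensembl gene, listed with gene length and position. The authors' table also holds a normalised signal, a log2 fold change by the authors (of miR-155OE over CTRL), its p-value and its adjusted p-value, and was used only where it is named.

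Counts were fitted by edgeR 4.0.16 (R 4.3.3), in which filterByExpr left 15135 of 58735 genes, TMM scaled the libraries, and the quasi-likelihood test compared the groups on group alone, with Benjamini-Hochberg adjustment over all genes tested at 0.05. Each SE was derived from the fold change and its F statistic. Log2 CPM used a prior count of 2. Replicates differed by a chi-square of 22.0 to 119.5 per degree of freedom, so none was a repeat of another within counting error. Same-numbered libraries deviated together (r of 0.578, 0.497, 0.184 and 0.607 across 10267 genes), and the numbers were therefore used as pairs, although library 3 of either group correlated best with library 4 of the other. Genes are not independent replicates. Alternatives were a replicate block, DESeq2 1.42.0 size factors, its Wald test, no filter, and leaving out each library. The block without both libraries of a number was added after the data were seen.

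Members given in full are those called on group alone or with the block and, in each role group, the member of highest RPKM and that of lowest p. Genes of other lists are those called on group alone and then up to 3 called with the block; some genes of the lists are not reported here. Any other gene given with values was picked with its values in view. The members and lists were chosen with earlier results of these data known. Promoters and miR-155-5p came from RefSeq on GRCh38.p14, taking the first promoter listed per symbol, and 3′ UTRs and exons from GENCODE 29. The fits were tested on simulated data.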

Additional observations from a re-analysis of the deposited data

Results flagged for a closer look

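Over the 30 members tested, 9 genes of other lists and 6 summed or median values per library, 90 groups of 4 libraries were searched for a library far from the other 3. It was found in 5, and chance gives about 1 group in 20. CDC20 stood at 10.8 CPM in miR-155OE replicate 3, against 5.23 to 6.13 CPM in the other miR-155OE libraries. MCM3 stood at 9.10 CPM in miR-155OE replicate 2, against 7.92 to 7.99 CPM in the others. CDKN2B was low in miR-155OE replicate 2, at 209.0 CPM, against 258.9 to 263.6 CPM in the others, and high in CTRL replicate 4, at 232.9 CPM, against 186.9 to 190.9 CPM. E2F1 stood at 10.3 CPM in CTRL replicate 4, against 6.01 to 6.43 CPM in the other CTRL libraries.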

How the results depend on the processing

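The number of all genes called, 488 on group alone, was 1908 with the replicate block, 1223 by DESeq2's Wald test, 927 with no filter and 125 to 1274 over the fits without 1 library. With the block it was 623, 2059, 1389 and 971 without both libraries numbered 1, 2, 3 or 4. The number of S phase members called, 0, became 1 with the block, with DESeq2's Wald test and with the block without replicate 2 or 3, and stayed 0 over the fits without 1 library. The number of G2/M members called, 0, became 2 with the block (2 without replicate 1, 2 or 3 and 1 without replicate 4), 1 with DESeq2's Wald test, 1 with no filter and 0 to 1 over the fits without 1 library, the 1 being CDC20 without miR-155OE replicate 2. The G2/M median difference of −0.16 was −0.0076 as a mean over members and −0.19 to −0.0076 over the fits without 1 library, with −0.073 without CTRL replicate 2. The S phase median was positive in all of these. Some members, with log2 fold changes from −0.22 (CENPE) to 0.15 (PLK1), changed sign, and none of them was called. Over the fits without 1 library MCM7 ran from −0.034 to 0.038, PCNA from −0.018 to 0.082, AURKA from −0.16 to 0.24, PLK1 from −0.00056 to 0.45 and KIF11 from −0.016 to 0.155. With the block and both libraries of a number left out, MCM7 reached −0.020, PCNA −0.035, AURKA −0.096, PLK1 −0.21, SLBP 0.013 and CENPE 0.031. The cause was not tested. The block changed no other call of a member. Depth limits the 13 members with too few reads to be tested, and also tested members with few reads, such as CDC45 and GINS2.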
